A study of Mus musculus with 16 samples.

Results

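Mature memory B cells, sorted as Fraction 7, were compared with the whole light zone gate of the germinal centre, sorted as LZ. The comparison used 6 of the 16 mouse spleen libraries of the study, 3 of Fraction 7 and 3 of LZ, chosen by their gate alone, and every gene of the expression table. All cells of both gates were donor B cells of strain C57BL/6 and genotype Bcl6-YFP(KI/+) B1-8hi(KI/+), which carry a fluorescent reporter of Bcl6 and a knocked-in heavy chain that binds the hapten NP. They had been transferred as naive cells into wild-type CD45.1+ hosts, which kept their own lymphocytes and were immunised in the peritoneum with NP-CGG in alum. On day 10 the spleens of 9 hosts were pooled and sorted for donor cells that were CD45.2+, NP+, IgG1+ and CD138-. Fraction 7 was then gated as CD38+, GL7-, Bcl6-YFPlo and Efnb1lo, and LZ as CD38-, CD86hi and CXCR4lo. Both gates are therefore IgG1-switched cells that share 1 knocked-in heavy chain, from pooled animals whose ages the labels do not give. Nothing in the labels ties the 3 libraries of a gate to separate pools of animals. The p-values therefore measure library-to-library spread, part or all of which may be technical. The series title names mTORC1 and survival signals in the making of memory precursors.

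The germinal centre is a structure in lymphoid follicles where activated B cells divide, mutate their antibody genes and are selected. Its light zone is the compartment in which B cells present antigen to follicular helper T cells and receive the signals for survival, for another round of division or for exit. The repressor Bcl6 maintains the germinal centre programme and holds cells in the follicle. Memory B cells leave this cycle, rest, recirculate through blood and lymphoid organs and respond quickly when the antigen returns. Transcripts of cell division, of tissue retention and exit, and of survival are therefore the classical points at which the 2 kinds of cell are told apart.

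The genes used for sorting, which check the labels and are no result, followed the gates. *Bcl6* had 20.5, 18.4 and 15 FPKM in Fraction 7, against 162, 155 and 177 in LZ. *Efnb1*, an ephrin ligand that marks germinal centre B cells, had 2.14, 2.37 and 1.93 FPKM in Fraction 7, against 54.7, 44.9 and 57.1 in LZ. *Cd38* stood at 77, 76.7 and 71.3 FPKM in Fraction 7, against 10.4, 12.8 and 9.39 in LZ. Outside the gate, *Plac8*, *S1pr1* and *Pml* were high in Fraction 7 and *Mef2b* and *Gcet2* high in LZ, in every library, which goes with both labels. *Sdc1*, the gene of CD138, for which the sort was negative, measured 0.502, 4.44 and 4.51 FPKM in Fraction 7, against 0.0246, 0.0219 and 0.0974 in LZ. For this gene Fraction 7 libraries 2 and 3 thus stood apart from library 1. The antibody joining chain gene *Igj* separated the same libraries, at 46.9, 296 and 292 FPKM in Fraction 7, against 96.4, 137 and 137 in LZ. *Xbp1*, a regulator of secretory cells, had 34, 84.9 and 81.3 FPKM in Fraction 7, against 62.4, 56.8 and 59.4 in LZ. Some other plasma cell markers, picked after their values were seen, did not set library 1 apart. *Pdia4* had 124, 136 and 117 FPKM in Fraction 7, against 33.2, 36.6 and 30.4 in LZ. *Fkbp11* had 13.7, 8.72 and 11.6 FPKM in Fraction 7, against 0.657, 0.234 and 0.651 in LZ. Library 1 was thus not low for every plasma cell marker. Of 18 tested plasma cell markers 7 rose and 5 fell, where 24.1% of all genes tested rose and 38.0% fell, and their summed level was 871, 1348 and 1227 FPKM in Fraction 7, against 933, 978 and 1025 in LZ. With Fraction 7 library 1 alone, an alternative chosen after the data were seen, 5556 genes were called, the germinal centre list below had 21 fallers and the memory list 28 risers. Of the 26 list medians given below, 12 moved by more than the replicate spread of their members with library 1 alone. That of antigen presentation was then 0.16, against -0.03 with all 3 libraries, and that of mitosis -3.28, against -2.98. Of the 52 counts of risers or fallers in these lists, 5 changed by over 1.5 times.

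FPKM are fragments scaled to transcript length and library size, and their sums over all genes ran from 416741 to 457520 in Fraction 7, against 483565 to 488339 in LZ. Between 10379 and 10552 genes reached 1 FPKM in the Fraction 7 libraries and between 10156 and 10244 in the LZ libraries. Genes listed at 0 numbered 8775, 6452 and 5000 in the Fraction 7 libraries, against 9024, 9106 and 9024 in LZ. Values near 0 may therefore not be alike between libraries, and the cause was not tested. Of the markers of other cells, 9 of 17 for T cells, 12 of 21 for myeloid cells and 9 of 11 for NK cells were below 1 FPKM in all 6 libraries, and others were well above it. Among those of T cells, *Cd3e* was listed at 0 in all 6 libraries, while *Cd2* had 126, 126 and 106 FPKM in Fraction 7, against 74.6, 74.5 and 85.2 in LZ and *Lck* had 6.2, 6.52 and 7.86 FPKM in Fraction 7, against 35.2, 28.7 and 32 in LZ. The neutrophil gene *Elane* and the killer cell gene *Gzma* were also listed at 0 throughout, and the globin *Beta-s* had 32.4, 54.4 and 32.2 FPKM in Fraction 7, against 29.7, 71.8 and 41.3 in LZ. Myeloid markers summed to 72.4, 74.5 and 107 FPKM in Fraction 7, against 38, 55.2 and 30.6 in LZ, with 4 of 9 tested markers higher and none lower. The risers included the integrin *Itgam* and *Mpeg1*. Over all genes tested, 24.1% were higher in Fraction 7 and 38.0% lower. T cell markers summed to 145, 141 and 127 FPKM in Fraction 7, against 120.3, 113 and 125 in LZ. Markers of naive and marginal zone B cells summed to 1134, 1031 and 969 FPKM in Fraction 7, against 768, 734 and 786 in LZ, with 6 of 11 higher and 1 lower. The part of each in the results was not tested.

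Fraction 7 and LZ differed in most of the genes expressed. A limma fit on log2(FPKM + 1) over 11266 genes called 6997, which is 62.1%, at a Benjamini-Hochberg adjusted p under 0.05. Of all genes tested, 2718 were higher in Fraction 7 (24.1%), 4279 were lower (38.0%) and 4269 did not pass. These shares are the background for each count of list members below. Throughout, a log2 change is Fraction 7 minus LZ on the log2(FPKM + 1) scale, so the changes of weakly expressed genes are compressed. The value after ± is its standard error from that fit, with n = 3 libraries each. Past a 2-fold difference, 758 genes were higher and 1212 lower, and past an 8-fold difference 72 were higher and 84 lower. The 3 and 3 libraries did not overlap for 2876 genes higher in Fraction 7 and 4380 lower, together 64.4% of those tested. The median log2 change over all genes was -0.10 in this fit, 0.01 after quantile normalization and -0.01 after median-ratio scaling. The share of calls that were higher in Fraction 7 moved with this shift, at 38.8% as deposited, 50% (3464 higher, 3467 lower) after quantile normalization and 46.9% (3376 higher, 3815 lower) after median-ratio scaling. It was 45.7% (3502 higher, 4169 lower) with no filter on low values and 32.2% (1875 higher, 3944 lower) with a minimum of 5 FPKM. In bulk libraries fewer cells of a type and less RNA per cell cannot be told apart, which holds for every value below.

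**Figure D1:**
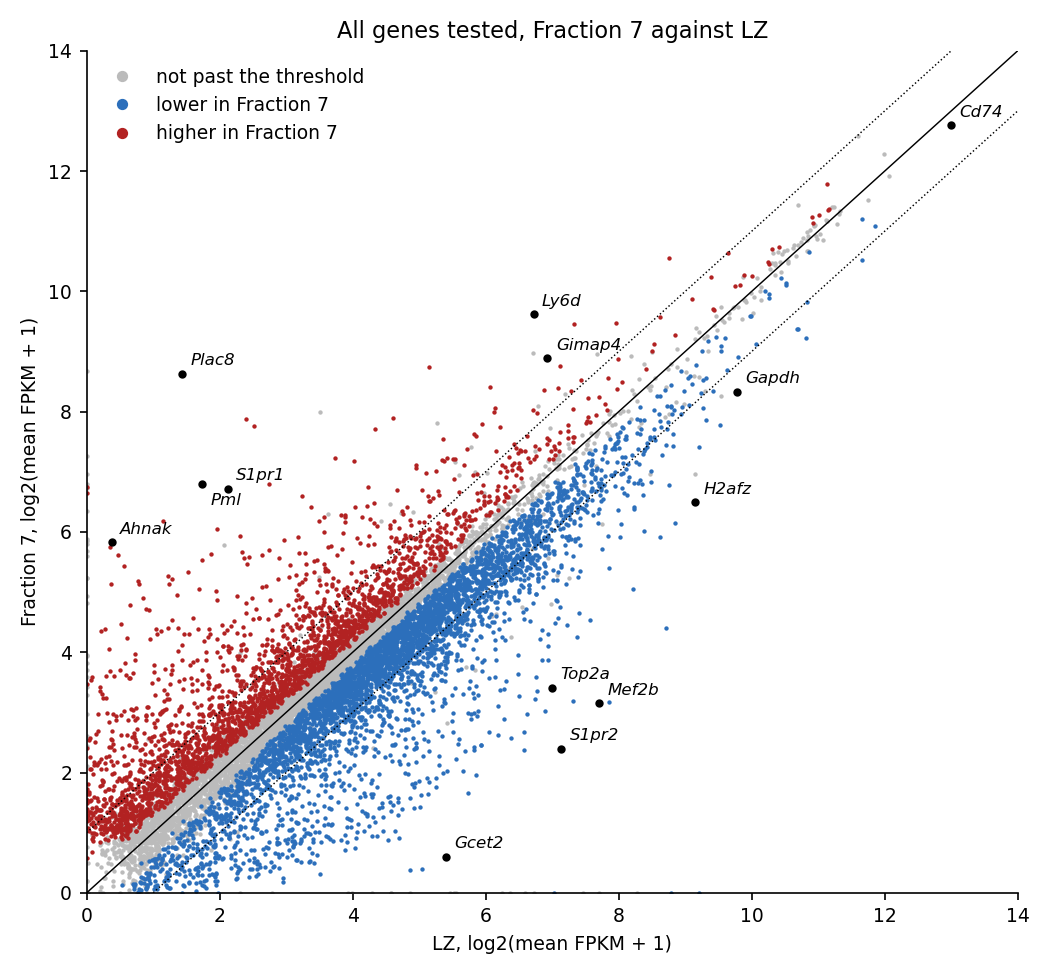
Mean level of each of the 11266 genes tested, as log2(mean FPKM + 1), in Fraction 7 (vertical axis) against LZ (horizontal axis). Red points were called higher in Fraction 7, blue points lower and grey points not called; the solid line marks equal levels and the dotted lines a 2-fold difference. *Plac8*, *S1pr1* and *Pml* lie far above the lines and *Gcet2*, *Mef2b* and *S1pr2* far below them, while *Cd74* lies close to equality.

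The 5 genes that best mark the gates moved by large steps. *Plac8*, a small cysteine-rich protein of lymphoid and myeloid cells, had 430.2, 329.6 and 428 FPKM in Fraction 7, against 1.42, 2.15 and 1.55 in LZ (log2 change 7.2 ± 0.38, adjusted p = 1.99e-09), and no other gene tested rose further. *S1pr1*, the receptor with which lymphocytes follow sphingosine 1-phosphate out of lymphoid tissue, had 119, 98.1 and 96.7 FPKM in Fraction 7, against 3.92, 2.83 and 3.32 in LZ (log2 change 4.6 ± 0.17, adjusted p = 1.29e-10). *Pml*, the organiser of the nuclear bodies that bear its name, had 124, 98.2 and 109 FPKM in Fraction 7, against 3.22, 2.73 and 1.08 in LZ (log2 change 5.12 ± 0.23, adjusted p = 3.79e-10). All 3 were low in every LZ library, and the groups lay far apart. On the other side, *Mef2b*, a transcription factor upstream of *Bcl6* in germinal centre B cells, had 7.43, 11.7 and 4.58 FPKM in Fraction 7, against 239, 174 and 209 in LZ (log2 change -4.62 ± 0.21, adjusted p = 5.83e-10). *Gcet2*, also called Gcsam, a signalling adaptor of germinal centre B cells, had 0.683, 0.528 and 0.344 FPKM in Fraction 7, against 37.5, 43 and 43.9 in LZ (log2 change -4.81 ± 0.11, adjusted p = 1.28e-12). Fraction 7 library 2 had the highest *Mef2b* of its group and was still far under every LZ library.

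The promoter of *Plac8* is shown because no gene rose further. The 300 bases around one of its 2 annotated starts, from 250 before to 50 after, hold 2 matches to CCCACCC, the CACCC box that Kruppel-like factors bind, given here in capitals. The sequence is RefSeq's for GRCm38.p6, minus strand, chr5:100572156-100572455.
Plac8: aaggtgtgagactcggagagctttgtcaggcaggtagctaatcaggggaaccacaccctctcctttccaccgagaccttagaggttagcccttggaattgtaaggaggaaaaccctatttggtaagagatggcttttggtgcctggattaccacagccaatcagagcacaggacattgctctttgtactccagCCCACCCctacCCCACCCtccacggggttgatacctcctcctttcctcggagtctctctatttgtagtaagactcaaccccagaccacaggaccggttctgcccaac
CCCACCC, searched on both strands, occurred in 19.4% of all 27025 genes of the promoter table. It occurred in 16 of the 33 genes found there for the list of memory and resting B cell genes (48.5%). For germinal centre identity it was in 9 of 20 (45%). A gene was counted once if the window of any of its annotated starts held a match. These matches are a description of letters, and both lists held them at nearly the same share.

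Genes of germinal centre identity fell almost as a block. Of the 24 members tested, 22 fell and 2 rose, with a median log2 change of -2.50 against -0.10 for all genes, and 17 fell past 2-fold. These fallers include the sort genes *Bcl6* and *Efnb1*, which are no result. *S1pr2*, the receptor that confines B cells to the follicle centre, had 4.1, 5.09 and 3.62 FPKM in Fraction 7, against 140.2, 129 and 150.2 in LZ (log2 change -4.74 ± 0.10, adjusted p = 9.17e-13). Its signalling partner *Gna13* moved less, at 31.3, 27 and 23 FPKM in Fraction 7, against 52.8, 51.3 and 55.4 in LZ (log2 change -0.96 ± 0.09). *Rgs13*, which shortens chemokine receptor signals in germinal centre B cells, had 3.32, 6.24 and 2.91 FPKM in Fraction 7, against 44.8, 58.3 and 48.4 in LZ. *S1pr2*, *Gna13* and *Rgs13* were thus lower in each Fraction 7 library than in any LZ library. *Basp1*, a membrane-bound signalling protein, had 9.32, 9.11 and 5.69 FPKM in Fraction 7, against 248, 225 and 219.9 in LZ (log2 change -4.71 ± 0.13, adjusted p = 1.60e-11). The GTPase gene *Gm600*, also called Nuggc or SLIP-GC, had 3.72, 4.48 and 4.38 FPKM in Fraction 7, against 86.3, 94.6 and 103 in LZ. The Myb family factor *Mybl1* had 5.28, 7.19 and 3.74 FPKM in Fraction 7, against 89.5, 99.6 and 94.3 in LZ. The death receptor *Fas*, a surface marker of the germinal centre, had 20.3, 25.7 and 21.7 FPKM in Fraction 7, against 72.4, 83.9 and 84.5 in LZ. *Il21r*, the receptor for the helper cytokine IL-21, had 56.3, 63.1 and 51.8 FPKM in Fraction 7, against 117, 122 and 111 in LZ. The smallest fall was that of the factor *Irf8* (log2 change -0.32 ± 0.07), whose change turned to 0.05 after quantile normalization.

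The 2 members that rose moved little. *Lmo2*, a transcriptional cofactor used as a germinal centre marker, had 292, 228 and 219 FPKM in Fraction 7, against 212, 184 and 208 in LZ (log2 change 0.28 ± 0.11, adjusted p = 0.0412). *Cd81*, a tetraspanin of the B cell surface, had 152, 151 and 141 FPKM in Fraction 7, against 127, 128 and 129 in LZ (log2 change 0.20 ± 0.07, adjusted p = 0.0239). Neither was called in every fit that left out 1 library, and their adjusted p lay near the threshold. Both were higher in each Fraction 7 library than in any LZ library, but 64.4% of all genes tested showed no overlap between these gates.

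Genes known from memory and resting B cells moved the other way. Of 36 listed, 35 were tested (*Il7r* was under the filter), 29 rose, 4 fell and 2 did not pass, with a median log2 change of 1.85. The risers include the sort gene *Cd38*, which is no result. Among surface molecules, *Ccr6*, a chemokine receptor linked with memory precursors, had 145, 160.2 and 140.2 FPKM in Fraction 7, against 11.8, 13.6 and 11.4 in LZ (log2 change 3.5 ± 0.13). *Cd55*, a brake on complement, had 73.7, 56.4 and 65.5 FPKM in Fraction 7, against 3.32, 2.74 and 2.57 in LZ. Both were several-fold higher in every Fraction 7 library than in any LZ library. The ligands used to divide memory B cells into subsets, *Cd80* and *Pdcd1lg2* (PD-L2), rose less, to 8.06, 6.21 and 6.32 FPKM for *Cd80* in Fraction 7, against 1.54, 0.752 and 1.16 FPKM in LZ (log2 change 1.88 ± 0.16). *Pdcd1lg2* had 19.8, 14 and 12.5 FPKM in Fraction 7, against 4.45, 3.64 and 3.89 in LZ. The third of those markers, *Nt5e* (CD73), went down, at 3.45, 4.32 and 3.81 FPKM in Fraction 7, against 6.55, 6.31 and 7.84 in LZ (log2 change -0.70 ± 0.10, adjusted p = 3.63e-05).

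Regulators linked with quiescence and memory made up much of the rest. *Klf2*, a zinc finger factor that favours quiescence and recirculation of lymphocytes, had 287, 204 and 217 FPKM in Fraction 7, against 26.9, 18.9 and 24.4 in LZ. Its relative *Klf3* had 35.2, 29 and 25.2 FPKM in Fraction 7, against 1.63, 1.6 and 1.45 in LZ. *Bhlhe41*, a repressor of B-1a and memory cells, had 78.2, 60.7 and 74.9 FPKM in Fraction 7, against 2.18, 1.18 and 0.285 in LZ (log2 change 5.12 ± 0.26, adjusted p = 1.20e-09). *Zbtb32*, a repressor that limits memory recall responses, had 49.3, 32.5 and 53.5 FPKM in Fraction 7, against 2.49, 1.87 and 2.65 in LZ (log2 change 3.77 ± 0.25, adjusted p = 1.65e-08). Both repressors were near the floor in LZ. *Hhex*, a homeobox factor needed for memory B cells, had 91, 68.8 and 69.5 FPKM in Fraction 7, against 12.7, 13.3 and 13.5 in LZ. Its corepressor *Tle3* had 58.4, 46.3 and 50.3 FPKM in Fraction 7, against 13, 12.6 and 14.2 in LZ, and *Foxp1*, a forkhead factor, rose by less (log2 change 1.39 ± 0.10). *Ski*, a corepressor of SMAD signalling, had 16.9, 11.7 and 12.5 FPKM in Fraction 7, against 0.612, 0.63 and 0.739 in LZ. Against this direction, *Bach2*, a repressor that favours memory over plasma cells, fell to 13.2, 12.9 and 9.05 FPKM in Fraction 7, against 36.5, 38.5 and 42.5 FPKM in LZ (log2 change -1.67 ± 0.12, adjusted p = 2.92e-08). The forkhead factor *Foxo1* had 17.1, 19.7 and 12.9 FPKM in Fraction 7, against 31.2, 31.4 and 32 in LZ (log2 change -0.91 ± 0.12, adjusted p = 1.59e-05). The integrin chain *Itgb1* was the fourth member that fell (log2 change -0.46 ± 0.11). *Fcer2a* (CD23, log2 change -0.11 ± 0.09, adjusted p = 0.328) and *Cr2* (CD21, log2 change -0.34 ± 0.16, adjusted p = 0.0747) did not pass.

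**Figure D2:**
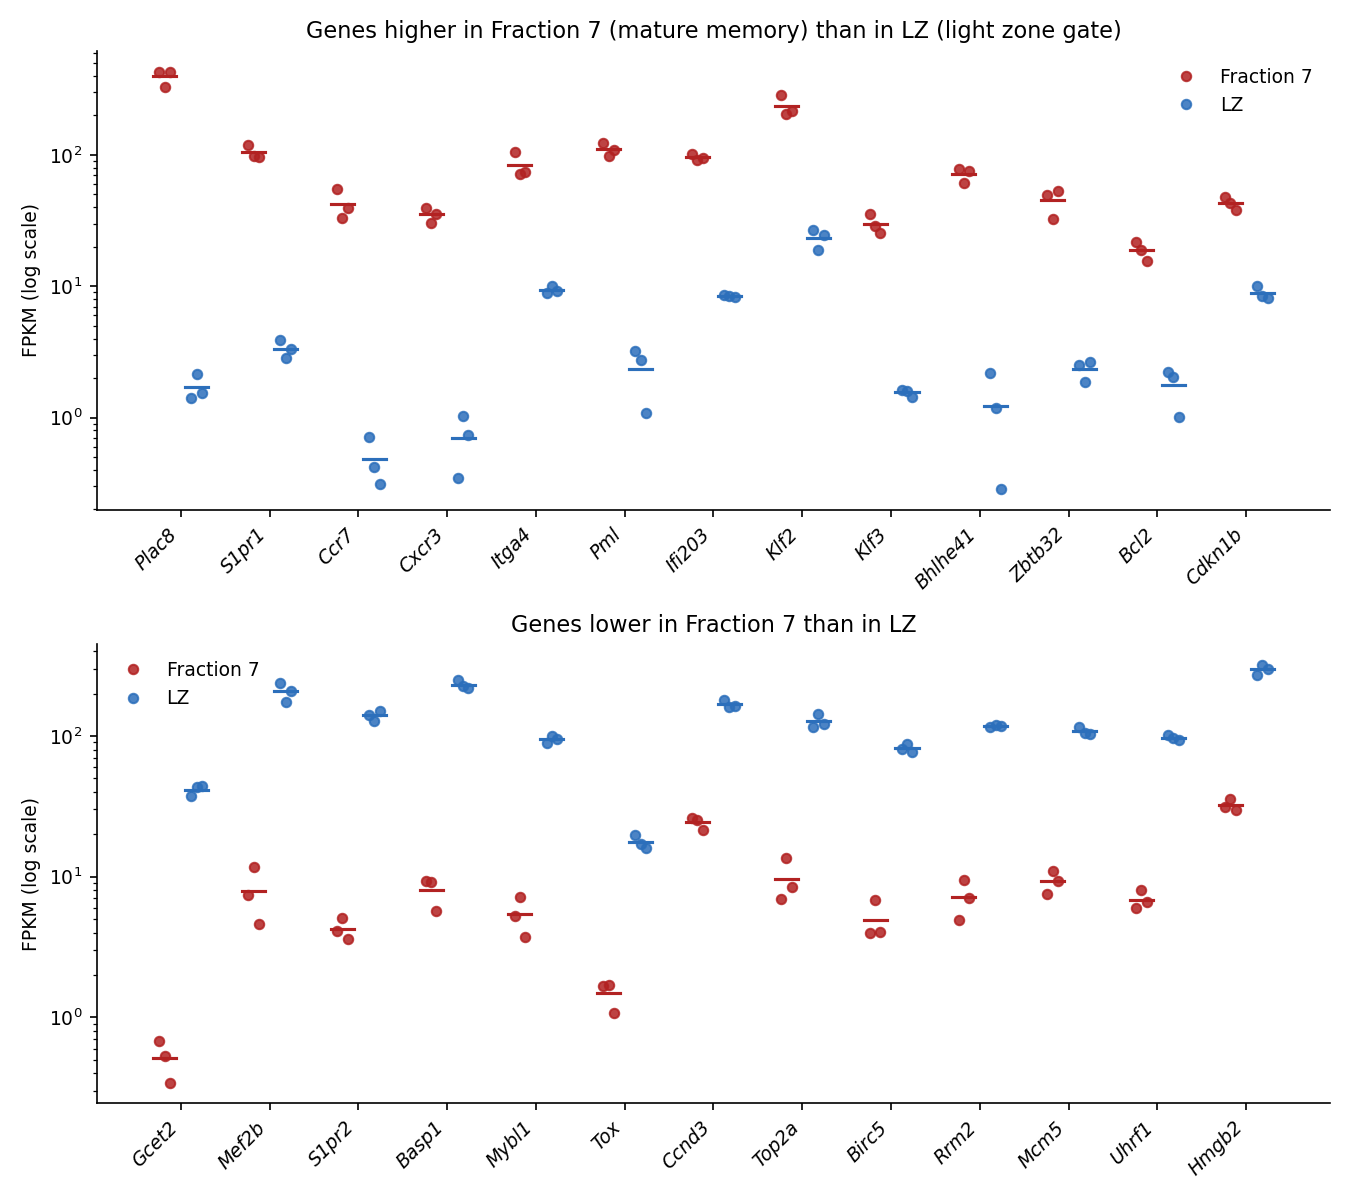
FPKM (log scale) of 13 genes higher in Fraction 7 (top) and 13 genes lower in Fraction 7 (bottom), with Fraction 7 in red left of LZ in blue; each point is a library and each bar the mean of 3. The spread of the 3 points of a gate varies by gene, and *Bhlhe41* in LZ runs from 0.285 to 2.18 FPKM. No gene shown has overlapping gates.

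Receptors for exit and homing rose in more members than they fell. Of 34 listed, 30 were tested, 18 rose and 10 fell (median log2 change 0.65). *Ccr7*, which guides cells to T cell areas and lymph nodes, had 54.6, 32.9 and 39.2 FPKM in Fraction 7, against 0.711, 0.423 and 0.314 in LZ (log2 change 4.84 ± 0.21, adjusted p = 3.30e-10). *Cxcr3*, a receptor for interferon-induced chemokines, had 39.8, 30.6 and 35.6 FPKM in Fraction 7, against 0.349, 1.02 and 0.742 in LZ (log2 change 4.42 ± 0.18). Among sphingosine 1-phosphate receptors *S1pr1* rose while *S1pr2* fell. *S1pr4*, a further receptor of the family, had 64.1, 45.6 and 50.9 FPKM in Fraction 7, against 13, 10.8 and 11.4 in LZ. *Gpr183*, the oxysterol receptor that draws B cells to the follicle border, had 55.3, 46.4 and 45.6 FPKM in Fraction 7, against 10.1, 6.92 and 7.41 in LZ (log2 change 2.47 ± 0.13). Orphan and lipid receptors joined them. *Gpr34* had 19.8, 21.3 and 17.5 FPKM in Fraction 7, against 0.0413, 0.295 and 0.164 in LZ, and *Gpr132* had 35, 30.2 and 36.8 FPKM in Fraction 7, against 1.32, 1.65 and 1.12 in LZ. Each was lower in every LZ library. *Cxcr5*, the receptor that brings B cells into follicles, did not pass, at 156, 128 and 123 FPKM in Fraction 7, against 119, 113 and 119 in LZ (log2 change 0.20 ± 0.09, adjusted p = 0.0554).

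The 10 fallers of that group were *S1pr2*, *S1pr3*, *Cxcr4*, the G-protein subunits *Gnai2* and *Gna13*, and 5 Rgs genes, which act as brakes on receptor signals. Of these, *Cxcr4* is a sort gene, since LZ was gated as CXCR4lo. *Rgs2*, a regulator of G-protein signalling like *Rgs13*, had 7.02, 10.7 and 6.52 FPKM in Fraction 7, against 38, 43.1 and 40.6 in LZ (log2 change -2.22 ± 0.12). *Rgs10* had 3.55, 6.82 and 8.95 FPKM in Fraction 7, against 24.2, 26.2 and 32.6 in LZ. *Rgs1* (log2 change -1.0 ± 0.26) and *Rgs18* (log2 change -0.86 ± 0.27) fell as well, while *Rgs14* rose (log2 change 0.58 ± 0.10) and *Rgs19* did not pass (log2 change 0.13 ± 0.12, adjusted p = 0.373).

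Adhesion genes and the proteins that sit under the cell membrane rose in larger number than they fell. Of 34 tested of 36 listed, 23 rose and 6 fell (median log2 change 0.97). *Itga4*, a chain of the integrin that binds vascular addressins, had 105, 71.9 and 74.2 FPKM in Fraction 7, against 8.86, 10.1 and 9.22 in LZ (log2 change 3.01 ± 0.12, adjusted p = 1.80e-10). Its partner chain *Itgb7* had 171, 124 and 135 FPKM in Fraction 7, against 14.9, 15 and 15.6 in LZ (log2 change 3.14 ± 0.12). *Selplg*, the ligand of selectins, had 34.4, 23 and 27.2 FPKM in Fraction 7, against 3.45, 2.94 and 2.34 in LZ. *Cd97*, an adhesion receptor, had 119.6, 101 and 110.1 FPKM in Fraction 7, against 5.02, 6.16 and 5.86 in LZ (log2 change 4.06 ± 0.12). Each was several-fold higher in every Fraction 7 library. The scaffold *Ahnak*, a giant protein of the membrane skeleton, had 73.9, 44 and 49.8 FPKM in Fraction 7, against 0.391, 0.241 and 0.268 in LZ (log2 change 5.42 ± 0.19, adjusted p = 6.81e-11). Its calcium-binding partner *S100a10* had 275, 171 and 258 FPKM in Fraction 7, against 6.42, 6.01 and 0.311 in LZ (log2 change 5.82 ± 0.58, adjusted p = 9.79e-07). *S100a6*, of the same calcium-binding family, had 70.9, 33.9 and 54.1 FPKM in Fraction 7, against 0.407, 0 and 0.404 in LZ. The other partner of the *Ahnak* complex did not follow, since *Anxa2* had 34.8, 18.8 and 28.5 FPKM in Fraction 7, against 79.4, 82.9 and 78.8 in LZ (log2 change -1.56 ± 0.16). *Itgb3*, which pairs with *Itgav*, had 1.14, 1.55 and 0.895 FPKM in Fraction 7, against 10.2, 11 and 11.3 in LZ (log2 change -2.44 ± 0.12). *Icam1*, the ligand of LFA-1, had 30.7, 35.7 and 30.3 FPKM in Fraction 7, against 57.8, 49.3 and 48.5 in LZ (log2 change -0.67 ± 0.08). *Itgb1*, *Itgb2* and *Itgav* were the other fallers.

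Members of the Gimap and Ly6 families rose with few exceptions. Of 15 tested, *Plac8* included, 14 rose and none fell, with a median log2 change of 1.73. The Gimap GTPases support survival of resting lymphocytes. *Gimap4* had 519.7, 441 and 455 FPKM in Fraction 7, against 109.9, 127 and 125 in LZ (log2 change 1.96 ± 0.08, adjusted p = 1.95e-10). *Gimap3* (log2 change 1.88 ± 0.08), *Gimap6* (log2 change 1.3 ± 0.09) and *Gimap8* (log2 change 1.47 ± 0.09) rose as well. *Ly6d*, a lipid-anchored surface protein of B lineage cells, had 841, 733 and 777 FPKM in Fraction 7, against 110.1, 112 and 90.5 in LZ (log2 change 2.9 ± 0.13, adjusted p = 5.99e-10). *Ly6a* (Sca-1) had 305, 256 and 238 FPKM in Fraction 7, against 74.3, 77.7 and 56.2 in LZ. *Ly6c2*, which plasma cells also express, had 16.1, 59.8 and 67.9 FPKM in Fraction 7, against 0.0585, 1.1 and 0 in LZ, with library 1 the lowest of its group. Its reads may be shared with the close copy *Ly6c1*. *Ly6k* did not pass (log2 change 0.38 ± 0.19, adjusted p = 0.0914).

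Interferon-stimulated and nuclear body genes rose in part. Of 37 tested of 41 listed, 22 rose and 3 fell (median log2 change 0.64). Sensors led the group after *Pml*. *Ifi203*, of the p200 family of DNA-binding proteins, had 102, 92.2 and 94.7 FPKM in Fraction 7, against 8.51, 8.49 and 8.21 in LZ (log2 change 3.37 ± 0.10, adjusted p = 2.16e-11). *Ifi204*, of the same family, had 13.1, 12 and 13.4 FPKM in Fraction 7, against 1.33, 1.08 and 0.664 in LZ. Members of that family resemble each other closely, so the division of reads between them is uncertain. *Ddx58* (RIG-I), a sensor of viral RNA, had 21.3, 19.9 and 18.9 FPKM in Fraction 7, against 1.63, 1.73 and 1.44 in LZ (log2 change 3.02 ± 0.10). *Trim25*, the ligase that activates it, had 33.9, 27.9 and 27 FPKM in Fraction 7, against 13.6, 13.7 and 14.3 in LZ. *Samd9l*, an antiviral and growth-limiting factor, had 71.3, 67.6 and 62.8 FPKM in Fraction 7, against 17.7, 22.2 and 19 in LZ. The interferon response factors *Stat2* (log2 change 0.08 ± 0.07, adjusted p = 0.307) and *Irf7* (log2 change -0.36 ± 0.21, adjusted p = 0.152) and the ubiquitin-like *Isg15* (log2 change 0.51 ± 0.21, adjusted p = 0.0513) did not pass. The nuclear body genes *Sp140* (log2 change -0.50 ± 0.06), *Sp110* (log2 change -0.32 ± 0.06) and *Daxx* (log2 change -0.29 ± 0.08) fell while *Pml* rose. After quantile normalization none of the 3 was called lower, the change of *Sp110* turned to 0.01, and *Daxx* was not called in every fit that left out 1 library. With a minimum of 5 FPKM, 13 members rose.

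Pattern recognition receptors and their pathway rose in 21 of 28 members tested and fell in 3 (median log2 change 0.60). *Tlr7*, the sensor of single-stranded RNA, had 20.3, 16.3 and 16.5 FPKM in Fraction 7, against 1.4, 0.917 and 0.51 in LZ (log2 change 3.29 ± 0.17, adjusted p = 1.94e-09). *Nod1*, a sensor of bacterial cell walls, had 11, 10.1 and 8.18 FPKM in Fraction 7, against 0.153, 0.275 and 0.0359 in LZ (log2 change 3.22 ± 0.15). *Unc93b1*, which carries such receptors to endosomes, had 386, 372 and 376 FPKM in Fraction 7, against 224, 219 and 240.1 in LZ. The brake *Irak3* rose with them, at 22.8, 18 and 15.6 FPKM in Fraction 7, against 1.16, 1.24 and 0.829 in LZ (log2 change 3.24 ± 0.17). The fallers were *Cd180*, a B cell surface relative of the Toll receptors, at 138, 137 and 112 FPKM in Fraction 7, against 171, 198 and 207 in LZ, and the adaptors *Tirap* (log2 change -0.54 ± 0.11) and *Myd88* (log2 change -0.30 ± 0.10), the last not called in every fit without 1 library. Among 32 tested cytokine receptors and signalling brakes of 36 listed, 20 rose and 3 fell (median log2 change 0.70). *Il6ra*, the receptor of IL-6, had 21.4, 17.2 and 17.5 FPKM in Fraction 7, against 1.54, 2.07 and 2.08 in LZ (log2 change 2.77 ± 0.14, adjusted p = 1.12e-09). *Il10ra*, a chain of the IL-10 receptor, had 36.2, 36.2 and 35.6 FPKM in Fraction 7, against 9.52, 9.1 and 12.1 in LZ. *Il2rg*, the chain shared by many cytokine receptors, had 197, 193 and 185 FPKM in Fraction 7, against 99.6, 103 and 89.4 in LZ. *Socs1*, a brake on JAK and STAT signalling, had 18.6, 10.1 and 10.2 FPKM in Fraction 7, against 41.2, 29.4 and 27.3 in LZ (log2 change -1.3 ± 0.25). The other fallers were *Il21r* and *Tnfrsf14* (log2 change -0.45 ± 0.13).

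B cell transcription factors were split. Of 74 tested of 80 listed, 31 rose, 21 fell and 22 did not pass (median log2 change 0.07). The sort gene *Bcl6* is among the fallers. After quantile normalization 42 rose and 13 fell. *Tox*, an HMG box factor, had 1.67, 1.71 and 1.07 FPKM in Fraction 7, against 19.7, 17 and 16 in LZ (log2 change -2.91 ± 0.13, adjusted p = 3.94e-10). Its relative *Tox2* had 0.0463, 0.351 and 0 FPKM in Fraction 7, against 8.9, 5.69 and 5.57 in LZ. The cell cycle factor *Mybl2* had 2.38, 3.89 and 3.82 FPKM in Fraction 7, against 41.7, 38.5 and 35 in LZ. These 3 were far lower in every Fraction 7 library. *Irf4*, which at high level favours plasma cells, had 19.5, 20.6 and 21.4 FPKM in Fraction 7, against 8.8, 7.14 and 6.05 in LZ (log2 change 1.38 ± 0.11, adjusted p = 7.42e-08). *Prdm1* (Blimp-1), the plasma cell repressor, was low in both gates at 1.37, 2 and 1.97 FPKM in Fraction 7, against 0.695, 0.772 and 0.127 in LZ (log2 change 0.88 ± 0.17, adjusted p = 0.000412). *Bhlhe40*, the relative of *Bhlhe41*, had 13.2, 17.1 and 11 FPKM in Fraction 7, against 3.9, 4.19 and 3.51 in LZ. *Tbx21* (T-bet), a factor of interferon-driven responses, had 5.66, 6.38 and 4.7 FPKM in Fraction 7, against 1.7, 1.14 and 1.24 in LZ. *Pax5*, which maintains B cell identity, had 174, 151 and 146 FPKM in Fraction 7, against 202, 179 and 179 in LZ (log2 change -0.25 ± 0.08, adjusted p = 0.0112). The call was lost in some fits without 1 library and the sign turned after quantile normalization (0.06). *Myc*, which drives growth and re-entry into division, did not pass, at 31.5, 30.3 and 32.1 FPKM in Fraction 7, against 40.0, 31.6 and 34.2 in LZ (log2 change -0.16 ± 0.12, adjusted p = 0.264).

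Signalling from the antigen receptor held genes of both directions. Of 38 tested, 18 rose and 10 fell (median log2 change 0.15), and after quantile normalization 24 rose and 3 fell. *Malt1*, the protease of the pathway to NF-kB, had 73.3, 67.7 and 72.9 FPKM in Fraction 7, against 22.5, 22.9 and 25.4 in LZ (log2 change 1.55 ± 0.08, adjusted p = 2.24e-09). *Ptpn22*, a phosphatase that damps the signal, had 22.3, 18.9 and 21.7 FPKM in Fraction 7, against 2.3, 3.02 and 4.02 in LZ. The inhibitory receptor *Lilrb4* had 10.2, 10.5 and 15.5 FPKM in Fraction 7, against 0.432, 0.772 and 0.0572 in LZ. Activating components and brakes therefore both rose. The adaptor *Pik3ap1* (BCAP), which recruits PI3-kinase, had 82.6, 81.3 and 75 FPKM in Fraction 7, against 171, 154 and 168 in LZ (log2 change -1.03 ± 0.06). The adaptor *Grb2* (log2 change -0.94 ± 0.06) and the kinase *Fyn* (log2 change -1.19 ± 0.08) fell with it. The central kinase *Syk* stood at 161, 166 and 134 FPKM in Fraction 7, against 144, 144 and 137 in LZ (log2 change 0.11 ± 0.08, adjusted p = 0.243) and did not pass.

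Antigen presentation as a list stayed near the middle, with 8 of 21 tested members higher, 7 lower and a median log2 change of -0.03, which was 0.16 after quantile normalization. The fallers include the sort gene *Cd86*, for which LZ was gated high. The MHC class II chain *H2-Ab1* (log2 change -0.03 ± 0.10, adjusted p = 0.813) and the T cell help receptor *Cd40* (log2 change -0.03 ± 0.09, adjusted p = 0.758) did not pass. The invariant chain *Cd74* was called (log2 change -0.23 ± 0.08, adjusted p = 0.0321), but not in every fit without 1 library, and quantile normalization brought its change to 0. *Cd83*, a light zone marker that stabilises MHC class II at the surface, had 109, 109.6 and 106 FPKM in Fraction 7, against 252, 232 and 251 in LZ (log2 change -1.17 ± 0.08, adjusted p = 2.97e-08). *Cd274* (PD-L1), a ligand that restrains T cells, had 20.5, 18.8 and 21.9 FPKM in Fraction 7, against 4.2, 4.09 and 3.99 in LZ (log2 change 2.07 ± 0.13, adjusted p = 7.70e-09). The protease *Ctss*, which trims the invariant chain, had 365, 325 and 282 FPKM in Fraction 7, against 153, 163 and 149 in LZ.

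Among survival and death genes *Bcl2* rose, and the fallers included both protective and pro-apoptotic members. Of 32 tested of 33 listed, 5 rose and 18 fell, with a median log2 change of -0.30 that was -0.04 after quantile normalization, where 9 rose and 13 fell. *Bcl2* had 21.6, 19 and 15.7 FPKM in Fraction 7, against 2.24, 2.02 and 1.02 in LZ (log2 change 2.86 ± 0.20, adjusted p = 3.86e-08). Its relative *Bcl2l1* (Bcl-xL) had 3.14, 4.47 and 3.33 FPKM in Fraction 7, against 12.2, 8.42 and 12.3 in LZ (log2 change -1.36 ± 0.16, adjusted p = 5.13e-06). *Mcl1*, which germinal centre and memory cells need, had 236, 190.0 and 186 FPKM in Fraction 7, against 159.7, 144 and 148 in LZ (log2 change 0.43 ± 0.09). The protective relatives *Bcl2a1a* (log2 change -0.46 ± 0.09), *Bcl2a1b* (log2 change -0.59 ± 0.10) and *Bcl2a1d* (log2 change -0.57 ± 0.11), close copies that may share reads, fell. Among the death effectors, *Bid* had 40.2, 40.0 and 36.7 FPKM in Fraction 7, against 84.5, 87.1 and 85.3 in LZ. The pore former *Bak1* fell too (log2 change -1.08 ± 0.10). *Bax* fell by less (log2 change -0.44 ± 0.09), and *Bcl2l11* (Bim) did not pass (log2 change 0.28 ± 0.12, adjusted p = 0.0509). *Pmaip1* (Noxa), which promotes death, rose (log2 change 0.72 ± 0.12, adjusted p = 0.000189). The receptors for the B cell survival cytokines BAFF and APRIL went different ways. *Tnfrsf13c*, the BAFF receptor, had 164, 173 and 147 FPKM in Fraction 7, against 334, 315 and 349 in LZ (log2 change -1.04 ± 0.09, adjusted p = 1.71e-07). *Tnfrsf13b* (TACI) had 81.5, 71.6 and 79.7 FPKM in Fraction 7, against 39.8, 39.7 and 47.2 in LZ (log2 change 0.86 ± 0.15, adjusted p = 0.000172). *Tnfrsf17* (BCMA), which plasma cells also carry, had 3.02, 2.44 and 4.73 FPKM in Fraction 7, against 0, 0 and 0.342 in LZ.

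Genes of division fell almost without exception. Of 50 DNA replication genes, all tested, 49 fell and none rose, with a median log2 change of -2.52. Of 54 mitosis genes, all tested, 54 fell, with a median of -2.98. *Lig1*, the ligase that joins replicated fragments, had 5.88, 6.83 and 6.58 FPKM in Fraction 7, against 75.1, 77.9 and 75.6 in LZ (log2 change -3.38 ± 0.07, adjusted p = 1.01e-12). The clamp *Pcna* had 59.9, 55.3 and 62.9 FPKM in Fraction 7, against 409, 388 and 376 in LZ (log2 change -2.7 ± 0.08, adjusted p = 2.29e-11). The helicase subunit *Mcm7* had 14.2, 17.6 and 16.8 FPKM in Fraction 7, against 124, 122 and 116 in LZ. *Rrm2*, which makes deoxynucleotides, had 4.93, 9.5 and 7.07 FPKM in Fraction 7, against 116, 119.8 and 117 in LZ (log2 change -3.9 ± 0.17). *E2f8*, a repressor induced in S phase, had 0.742, 1.17 and 0.755 FPKM in Fraction 7, against 25.8, 25.2 and 24.2 in LZ. No replication gene that fell had overlapping gates. The exception was *Tyms*, thymidylate synthase, at 10.2, 18.2 and 32.3 FPKM in Fraction 7, against 16.6, 19.5 and 16 in LZ (log2 change 0.07 ± 0.26, adjusted p = 0.82), where Fraction 7 libraries ran from below to above the LZ libraries.

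Among mitotic genes, *Incenp*, of the chromosomal passenger complex, had 8.91, 8.83 and 8.53 FPKM in Fraction 7, against 56.4, 60.0 and 57.9 in LZ (log2 change -2.6 ± 0.08, adjusted p = 3.01e-11). Its partner *Birc5* (survivin) had 3.95, 6.78 and 4.07 FPKM in Fraction 7, against 81.3, 87.4 and 77 in LZ. The proliferation antigen *Mki67* had 8.57, 14.8 and 9.89 FPKM in Fraction 7, against 96.7, 120.5 and 104 in LZ. *Top2a*, which untangles sister chromatids, had 6.95, 13.6 and 8.44 FPKM in Fraction 7, against 116, 143 and 121 in LZ. Fraction 7 library 2 was the highest of its gate for *Birc5*, *Mki67* and *Top2a*, and still several-fold under LZ. The smallest fall was that of the phosphatase *Cdc25b*, at 39.8, 32.6 and 38 FPKM in Fraction 7, against 50.9, 54.3 and 62.9 in LZ (log2 change -0.59 ± 0.12, adjusted p = 0.000626). With Fraction 7 library 1 alone, 50 replication genes and 54 mitosis genes fell.

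The promoters of 3 such genes, chosen after their values were seen, are shown for the motifs that mark the 2 phases. E2F factors bind the letters TTTGGCGC, TTTCGCGC, TTTCCCGC or TTTGCCGC in genes of DNA synthesis. The CHR, letters TTTGAA, and the NF-Y box, letters CCAAT, are the classical pair of mitotic promoters. Each window runs from 250 bases before to 50 after the start, in RefSeq's GRCm38.p6, with matches to any of the 3 motifs on either strand in capitals. *Mcm5*, a helicase subunit, is on the plus strand at chr8:75109259-75109558 and holds 2 E2F matches that overlap on opposite strands, and 3 NF-Y matches. *Cdk1*, the kinase that starts mitosis, is on the minus strand at chr10:69352863-69353162 and holds 1 E2F, 2 CHR and 3 NF-Y matches. *Cdc20*, which activates chromosome separation, is on the minus strand at chr4:118437294-118437593 and holds 1 CHR and 2 NF-Y matches.
Mcm5: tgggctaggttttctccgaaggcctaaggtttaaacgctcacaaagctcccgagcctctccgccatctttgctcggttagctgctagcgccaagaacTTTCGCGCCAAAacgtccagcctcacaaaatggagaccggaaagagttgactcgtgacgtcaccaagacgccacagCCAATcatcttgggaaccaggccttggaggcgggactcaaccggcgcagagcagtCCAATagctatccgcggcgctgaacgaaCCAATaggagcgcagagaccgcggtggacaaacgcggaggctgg
Cdk1: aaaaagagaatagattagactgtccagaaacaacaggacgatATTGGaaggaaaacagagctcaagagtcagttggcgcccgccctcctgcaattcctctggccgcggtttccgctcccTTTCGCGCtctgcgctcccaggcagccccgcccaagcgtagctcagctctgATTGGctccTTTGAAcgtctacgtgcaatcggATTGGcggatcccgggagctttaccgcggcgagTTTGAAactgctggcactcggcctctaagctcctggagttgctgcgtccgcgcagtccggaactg
Cdc20: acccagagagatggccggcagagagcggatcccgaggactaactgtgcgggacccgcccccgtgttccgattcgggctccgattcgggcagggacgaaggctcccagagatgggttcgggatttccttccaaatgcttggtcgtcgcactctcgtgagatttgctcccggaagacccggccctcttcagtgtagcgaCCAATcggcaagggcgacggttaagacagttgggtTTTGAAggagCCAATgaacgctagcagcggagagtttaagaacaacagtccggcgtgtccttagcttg
The level of *Mcm5* was 7.48, 11 and 9.36 FPKM in Fraction 7, against 116, 105 and 103 in LZ (log2 change -3.42 ± 0.11, adjusted p = 4.58e-11). *Cdk1* had 0.744, 1.12 and 1.25 FPKM in Fraction 7, against 18.3, 23.1 and 21.7 in LZ (log2 change -3.44 ± 0.18, adjusted p = 1.79e-09). *Cdc20* had 2.46, 5.96 and 5.12 FPKM in Fraction 7, against 62.5, 58.8 and 59.1 in LZ (log2 change -3.53 ± 0.20, adjusted p = 3.66e-09). Counted by gene, over the windows of all its annotated starts, E2F letters occurred in 16 of the 41 genes found for the replication list (39%). They were in 4 of 45 for mitosis (8.89%) and in 2.6% of all 27025 genes. CHR letters occurred in 7 replication genes (17.1%), in 34 mitosis genes (75.6%) and in 20.2% of all. NF-Y letters were in 25 (61%) of the replication genes, 34 (75.6%) of the mitosis genes and 41.1% of all.

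Regulators of entry into the cycle went both ways. Of 31 tested brakes and G1 regulators of 35 listed, 11 rose (35.5%) and 13 fell (41.9%). Their median log2 change was 0.16. Over all genes tested 24.1% rose and 38.0% fell, so the share of fallers was near that of all genes. *Ccnd3*, the D-type cyclin of germinal centre B cells, had 26.3, 25.1 and 21.5 FPKM in Fraction 7, against 181, 160.2 and 163 in LZ (log2 change -2.74 ± 0.07, adjusted p = 1.13e-11). *Ccnd2*, the D-type cyclin of newly activated B cells, had 19, 20.4 and 16 FPKM in Fraction 7, against 10.4, 8.53 and 8.98 in LZ (log2 change 0.92 ± 0.15). Their kinase *Cdk4* had 48.8, 50.9 and 52.2 FPKM in Fraction 7, against 139, 127 and 120.4 in LZ. *Cdkn1b* (p27), an inhibitor of the cycle in resting lymphocytes, had 48.2, 43.4 and 38.1 FPKM in Fraction 7, against 10.1, 8.37 and 8.11 in LZ (log2 change 2.17 ± 0.13, adjusted p = 6.52e-09). The inhibitor *Cdkn2c* (p18) had 3.24, 7 and 3.54 FPKM in Fraction 7, against 26.4, 35.5 and 28.4 in LZ (log2 change -2.52 ± 0.21). Within the retinoblastoma family, *Rb1* rose (log2 change 1.71 ± 0.16) and *Rbl2* rose (log2 change 0.72 ± 0.09), and *Rbl1* fell (log2 change -1.36 ± 0.11). *Txnip*, a brake on glucose uptake, had 166, 135 and 148 FPKM in Fraction 7, against 38.2, 38.8 and 48.7 in LZ (log2 change 1.82 ± 0.13).

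Mutation and chromatin genes fell in most members. Of 29 tested genes of hypermutation and mutation repair, 24 fell and 2 rose (median log2 change -0.98). *Ung*, the glycosylase that removes uracil from DNA, had 3.03, 3.82 and 3.82 FPKM in Fraction 7, against 24.6, 24.1 and 20.9 in LZ (log2 change -2.41 ± 0.12). The mismatch sensor *Msh6* had 10.8, 11.8 and 8.97 FPKM in Fraction 7, against 39.7, 42.1 and 41.3 in LZ. The damage histone *H2afx* had 23.3, 22.1 and 21.2 FPKM in Fraction 7, against 182, 186 and 197 in LZ (log2 change -3.03 ± 0.06, adjusted p = 1.01e-12). The risers *Poli* (log2 change 0.34 ± 0.11, adjusted p = 0.0197) and *Prkdc* (log2 change 0.29 ± 0.09, adjusted p = 0.0154) moved little, and neither was called in every fit that left out 1 library. Of 39 tested chromatin regulators of 40 listed, 27 fell and 8 rose (median log2 change -1.06). *Dnmt1*, which copies DNA methylation at replication, had 21.1, 19.5 and 18.5 FPKM in Fraction 7, against 121, 110.3 and 113 in LZ (log2 change -2.48 ± 0.08). Its guide *Uhrf1* had 5.95, 8.02 and 6.55 FPKM in Fraction 7, against 101, 96.5 and 93.7 in LZ (log2 change -3.65 ± 0.11). The chromatin protein *Hmgb2* had 31.5, 35.3 and 29.6 FPKM in Fraction 7, against 269, 319.6 and 300.3 in LZ. *Ezh2*, the Polycomb methyltransferase needed in the germinal centre, had 13.5, 15 and 13.6 FPKM in Fraction 7, against 60.0, 56.3 and 56.2 in LZ (log2 change -1.96 ± 0.08). Its relative *Ezh1* had 17.8, 13.2 and 15.1 FPKM in Fraction 7, against 6.42, 6.78 and 5.71 in LZ (log2 change 1.16 ± 0.12). *Cbx5* fell (log2 change -1.79 ± 0.11) and *Cbx7* rose (log2 change 1.17 ± 0.07). *Tet2*, which oxidises methylated cytosine, had 4.52, 4.67 and 4.25 FPKM in Fraction 7, against 1.47, 1.5 and 0.882 in LZ (log2 change 1.27 ± 0.12), and the methyltransferase *Mll2* rose (log2 change 1.12 ± 0.11).

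Genes of growth and biosynthesis fell by smaller steps. Of 39 ribosome biogenesis genes tested, 33 fell and none rose (median log2 change -0.70). *Gar1*, a core protein of pseudouridylation particles, had 14.6, 14.7 and 14.8 FPKM in Fraction 7, against 45.4, 46.5 and 46.7 in LZ (log2 change -1.59 ± 0.07, adjusted p = 3.85e-10). Nucleolin, *Ncl*, had 57.2, 50.7 and 46.9 FPKM in Fraction 7, against 123, 127 and 114 in LZ. Of 33 translation and tRNA charging genes, 26 fell and 1 rose (median -0.79). The helicase *Eif4a1* had 128, 129.9 and 128 FPKM in Fraction 7, against 360.0, 371 and 344 in LZ (log2 change -1.47 ± 0.07). *Eif5a*, which helps ribosomes through proline stretches, had 247, 225 and 222 FPKM in Fraction 7, against 708, 614 and 591 in LZ. The riser was *Wars*, a tRNA synthetase that interferon induces, at 41.9, 33.9 and 31.1 FPKM in Fraction 7, against 25.8, 19.1 and 22.2 in LZ (log2 change 0.65 ± 0.12, adjusted p = 0.000281). The counts with Fraction 7 library 1 alone were 26 ribosome biogenesis and 24 translation genes lower.

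Most cytosolic ribosomal proteins were not called in either direction. Of 75 tested, 12 rose, 13 fell and 50 did not pass, with a median log2 change of 0.01. Both shares of calls lay below those over all genes tested, 24.1% higher and 38.0% lower. After quantile normalization 23 rose and 14 fell, and after median-ratio scaling 31 rose and 8 fell. Most shifts were small, from *Rpl37a* (log2 change 0.40 ± 0.08) and *Rps14* (log2 change 0.34 ± 0.08) on one side to *Rps2* (log2 change -0.42 ± 0.08) and *Rpl28* (log2 change -0.46 ± 0.09) on the other. *Rpl26* had 0.000469, 3.1 and 0.000474 FPKM in Fraction 7, against 9.93, 24.3 and 16.9 in LZ and *Rps27* had 12.7, 738 and 11.7 FPKM in Fraction 7, against 8.2, 13.7 and 9.05 in LZ; genes of this class have many processed copies that can take their reads, and these values are uncertain.

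Nutrient and mTORC1 genes fell in most members. Of 41 tested, 28 fell and 6 rose (median log2 change -0.77). *Slc7a5*, the large neutral amino acid transporter, had 7.62, 6.48 and 6.99 FPKM in Fraction 7, against 35, 27.2 and 24.4 in LZ (log2 change -1.88 ± 0.14). *Psat1*, of serine synthesis, had 5.88, 9.84 and 5.63 FPKM in Fraction 7, against 61.5, 54.4 and 58.9 in LZ (log2 change -2.9 ± 0.16). The folate enzyme *Mthfd2* had 6.02, 7.3 and 9.4 FPKM in Fraction 7, against 40.7, 41.3 and 36.4 in LZ. *Odc1*, which starts polyamine synthesis, had 27.3, 25.7 and 28.2 FPKM in Fraction 7, against 106, 109 and 97.6 in LZ (log2 change -1.9 ± 0.08). Each was lower in every Fraction 7 library. The 6 risers included some brakes on mTORC1. *Sesn1*, a leucine sensor that restrains mTORC1, had 39.1, 37.4 and 38.7 FPKM in Fraction 7, against 8.59, 8.51 and 9.36 in LZ (log2 change 2.0 ± 0.07, adjusted p = 4.38e-11). *Ddit4* (REDD1), a stress-induced brake, had 62.7, 55.6 and 53.5 FPKM in Fraction 7, against 25.6, 22.6 and 24.5 in LZ (log2 change 1.21 ± 0.11). *Tsc22d3* (GILZ), which glucocorticoids induce, had 46, 39.8 and 27.9 FPKM in Fraction 7, against 8.42, 8.7 and 6.48 in LZ (log2 change 2.11 ± 0.16). *Gatsl3* (Castor1), an arginine sensor that restrains mTORC1 (log2 change 2.11 ± 0.22), its relative *Gatsl2* (log2 change 1.06 ± 0.14) and the kinase *Mtor* itself (log2 change 0.29 ± 0.11, adjusted p = 0.0303) were the other risers. Of the remaining brakes in the list, *Depdc5* fell (log2 change -0.89 ± 0.10), and *Sesn2* (log2 change 0.42 ± 0.19, adjusted p = 0.0696), *Sesn3* (log2 change -0.06 ± 0.12, adjusted p = 0.667), *Tsc1* (log2 change -0.05 ± 0.08, adjusted p = 0.613) and *Tsc2* (log2 change -0.02 ± 0.10, adjusted p = 0.903) did not pass. *Rps6kb1*, the S6 kinase downstream of mTORC1, had 13.6, 13.3 and 12.4 FPKM in Fraction 7, against 20.4, 20.0 and 20.4 in LZ (log2 change -0.59 ± 0.09, adjusted p = 3.75e-05).

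Energy metabolism and protein turnover fell broadly. Of 28 genes of glycolysis and the pentose phosphate pathway, 18 fell and 5 rose (median log2 change -0.52). *Gapdh* had 336, 315 and 313 FPKM in Fraction 7, against 950.1, 855 and 824 in LZ (log2 change -1.44 ± 0.06, adjusted p = 3.85e-10). *Ldha*, lactate dehydrogenase, had 121, 101 and 108 FPKM in Fraction 7, against 349, 314 and 312 in LZ (log2 change -1.56 ± 0.08). The glucose transporters rose, *Slc2a1* to 26.4, 21.9 and 21.1 FPKM in Fraction 7, against 11.9, 10.2 and 11.8 FPKM in LZ (log2 change 0.97 ± 0.11). *Slc2a3* (log2 change 1.29 ± 0.11) and the pyruvate dehydrogenase kinase *Pdk1* (log2 change 0.89 ± 0.12) rose too. Of 58 respiratory chain and ATP synthase genes, 56 fell and none rose (median -0.77), led by *Atp5g3* at 119, 107 and 119 FPKM in Fraction 7, against 322, 320.0 and 313 in LZ (log2 change -1.46 ± 0.07, adjusted p = 6.42e-10). The members that did not pass were *Ndufa6* (log2 change 0.16 ± 0.12, adjusted p = 0.272) and *Ndufa7* (log2 change -0.14 ± 0.10, adjusted p = 0.249). After quantile normalization 46 fell and 3 rose. Of 47 proteasome and chaperonin genes, 46 fell (median -0.94). *Psmb7* had 62.5, 53.5 and 56.2 FPKM in Fraction 7, against 151, 139 and 159 in LZ (log2 change -1.37 ± 0.08, adjusted p = 3.29e-09). The chaperone *Hsp90aa1* had 108, 89.9 and 93.9 FPKM in Fraction 7, against 276, 287 and 269 in LZ. The exception was the interferon-induced activator *Psme2* (log2 change -0.15 ± 0.08, adjusted p = 0.12). The subunits of the immunoproteasome *Psmb8* (log2 change -0.65 ± 0.06), *Psmb9* (log2 change -0.52 ± 0.06) and *Psmb10* (log2 change -0.30 ± 0.10) fell as well.

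More lysosomal genes rose than fell. Of 36 tested autophagy and lysosome genes of 40 listed, 16 rose and 8 fell (median log2 change 0.24), and 23 rose and 3 fell after quantile normalization. *Psap*, the precursor of saposins, had 458, 408 and 429 FPKM in Fraction 7, against 134, 132 and 147 in LZ (log2 change 1.64 ± 0.09, adjusted p = 1.67e-09). The protease *Ctsd* had 34.9, 31.7 and 30.7 FPKM in Fraction 7, against 13.9, 14.7 and 16.6 in LZ. *Npc1*, which releases cholesterol from lysosomes, had 12.5, 11 and 12.3 FPKM in Fraction 7, against 5.26, 5.11 and 5.29 in LZ. Its partner *Npc2* had 23.9, 20.3 and 26.2 FPKM in Fraction 7, against 9.09, 6.89 and 7.56 in LZ. The fallers included a subunit of the proton pump, *Atp6v1h*, at 9.41, 10.6 and 7.99 FPKM in Fraction 7, against 23.9, 25.7 and 20.8 in LZ (log2 change -1.25 ± 0.15), *Atg3* (log2 change -0.70 ± 0.10) and the autophagy kinase *Ulk1* (log2 change -0.55 ± 0.08).

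Sterol synthesis fell along the pathway while efflux rose. Of 36 tested sterol and fatty acid genes of 37 listed, 30 fell and 5 rose (median log2 change -0.94). At the entry, *Hmgcs1* had 7.25, 4.75 and 6.6 FPKM in Fraction 7, against 19.9, 22.9 and 20.6 in LZ (log2 change -1.63 ± 0.13). *Idi1*, in the isoprenoid part, had 7.98, 5.36 and 7.45 FPKM in Fraction 7, against 40.0, 49.6 and 43.7 in LZ (log2 change -2.53 ± 0.14, adjusted p = 3.62e-09). *Sqle*, which starts the sterol part, had 5.73, 6.01 and 6.09 FPKM in Fraction 7, against 28.3, 29.9 and 29.1 in LZ (log2 change -2.12 ± 0.09, adjusted p = 3.65e-10). *Insig1*, the sterol sensor that is itself a target of SREBP2, had 7.72, 7.66 and 8.92 FPKM in Fraction 7, against 26.1, 24.9 and 25 in LZ (log2 change -1.54 ± 0.11). One late enzyme, *Ebp*, did not pass, at 12.3, 12 and 11.1 FPKM in Fraction 7, against 10.7, 10.2 and 10.5 in LZ (log2 change 0.15 ± 0.13, adjusted p = 0.31). In the opposite direction, *Abca1*, which exports cholesterol, had 31.8, 23.8 and 19.9 FPKM in Fraction 7, against 6.06, 6.88 and 6.45 in LZ (log2 change 1.79 ± 0.15). The exporter *Abcg1* had 10.1, 13.6 and 8.29 FPKM in Fraction 7, against 1.73, 3.3 and 1.48 in LZ (log2 change 1.9 ± 0.25). *Mylip* (IDOL), a ubiquitin ligase, had 68.3, 56.7 and 54.2 FPKM in Fraction 7, against 21, 13.9 and 18.9 in LZ (log2 change 1.69 ± 0.14). All 3 are known targets of the oxysterol receptor LXR. Among fatty acid enzymes the desaturase *Fads2* fell to 0, 0.396 and 0.144 FPKM in Fraction 7, against 7.73, 5.91 and 6.52 FPKM in LZ, while the desaturase *Scd1* rose, at 186, 168 and 141 FPKM in Fraction 7, against 107, 113 and 109 in LZ (log2 change 0.58 ± 0.10).

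**Figure D3:**
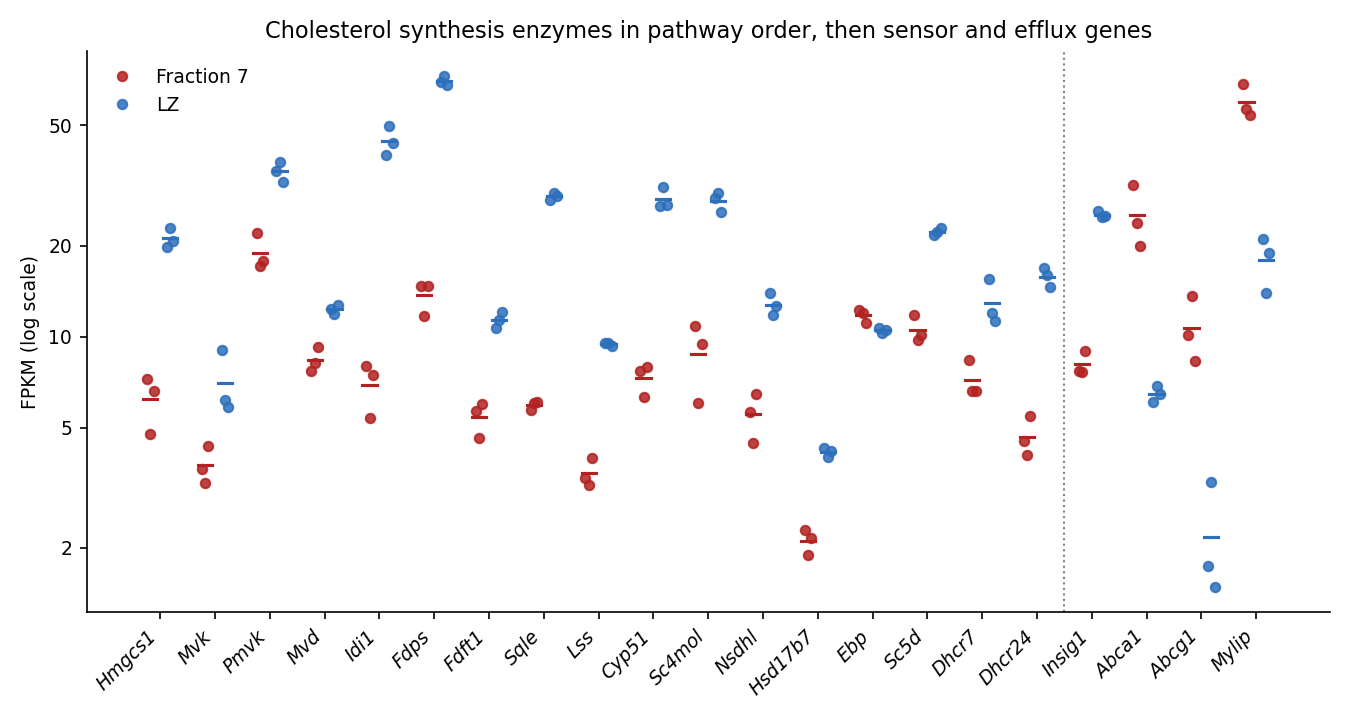
FPKM (log scale) of 17 cholesterol synthesis enzymes in pathway order, left of the dotted line, then *Insig1*, *Abca1*, *Abcg1* and *Mylip*; Fraction 7 in red is left of LZ in blue, each point is a library and each bar the mean of 3. Most enzymes lie lower in Fraction 7, *Ebp* lies about level, and *Abca1*, *Abcg1* and *Mylip* lie higher.

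**Figure D4:**
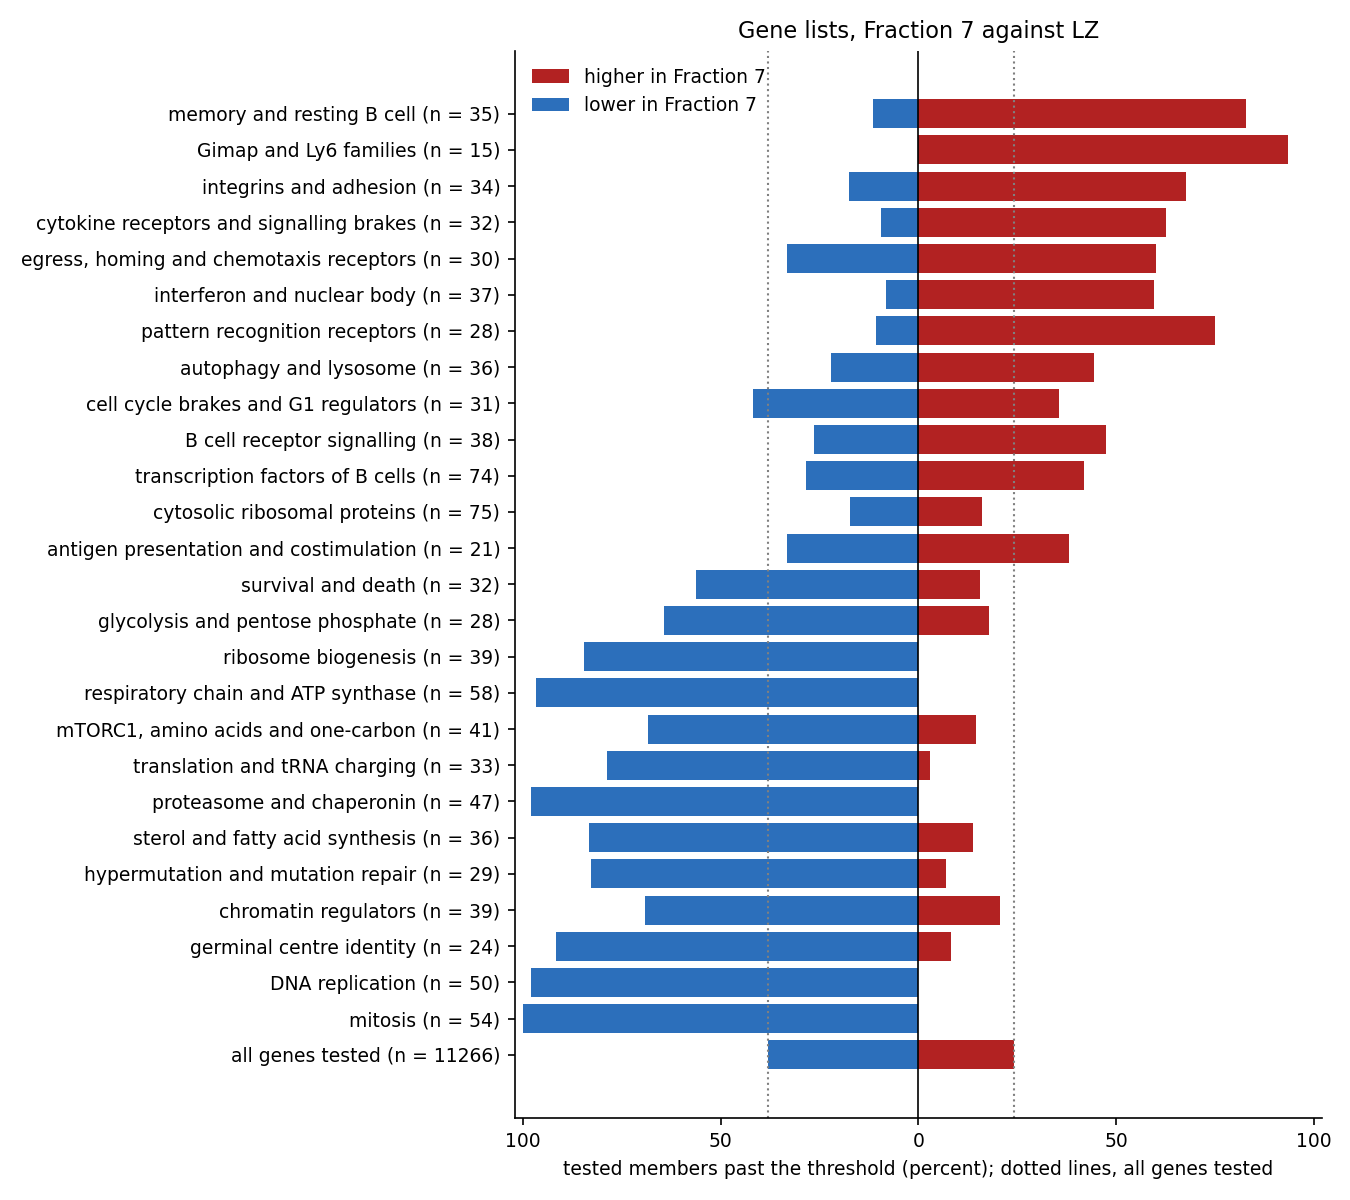
Percent of the tested members of each gene list that were called higher in Fraction 7 (red, to the right) or lower (blue, to the left); n is the number tested, and the dotted lines mark the shares over all genes, 24.1% higher and 38.0% lower. Mitosis, DNA replication and proteasome genes fell almost entirely, while Gimap and Ly6, memory and pattern recognition genes lay far to the right.

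A few genes were off in one gate and on in the other, here below 0.5 FPKM in all 3 libraries of one gate and at 5 FPKM or more in all 3 of the other. Fraction 7 had 16 such genes. Beside *Ahnak*, *S100a6*, *Gpr34*, *Nod1* and *Itgam*, they held *Tmem154* at 21.5, 18.3 and 20.1 FPKM in Fraction 7, against 0.179, 0.139 and 0.332 in LZ (log2 change 4.11 ± 0.17). *Plaur*, the urokinase receptor, had 14, 13.1 and 19.8 FPKM in Fraction 7, against 0.352, 0.419 and 0 in LZ. *Pik3r6*, a regulatory subunit of the PI3-kinase that G-protein coupled receptors activate, had 8.9, 8.24 and 10.7 FPKM in Fraction 7, against 0.278, 0.103 and 0.0689 in LZ. In the other direction 7 were off in Fraction 7. *Ccrl1* (ACKR4), a scavenger of the chemokines that *Ccr7* binds, had 0.179, 0.0677 and 0.461 FPKM in Fraction 7, against 10.4, 9.67 and 10.9 in LZ (log2 change -3.21 ± 0.14). *E2f7*, the partner of *E2f8*, had 0.168, 0.404 and 0.274 FPKM in Fraction 7, against 5.83, 5.55 and 5.88 in LZ (log2 change -2.4 ± 0.11). *Lrrc32* (GARP), which displays latent TGF-beta, had 0.377, 0.286 and 0.33 FPKM in Fraction 7, against 6.69, 5 and 7.56 in LZ (log2 change -2.46 ± 0.24). *Tox2* and *Fads2* were 2 others, and the short RNAs *Snord57* and *Snora61* complete the count. *Snord57* was listed at 0 in all Fraction 7 libraries, against 831, 742 and 206 FPKM in LZ, and *Snora61* at 0 in all Fraction 7 libraries, against 674, 200.5 and 446 FPKM in LZ. FPKM of such short RNAs rest on few fragments and no fold is given.

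Other large movers were *Sspn*, a membrane protein of the dystrophin complex, at 36.7, 27.8 and 38 FPKM in Fraction 7, against 0.60, 0.223 and 0.033 in LZ (log2 change 4.79 ± 0.19, adjusted p = 1.71e-10), and *Ckap4*, a membrane protein of the endoplasmic reticulum, at 42.3, 27.7 and 32.9 FPKM in Fraction 7, against 0.517, 1.04 and 0.615 in LZ (log2 change 4.35 ± 0.16). Among the largest falls were *Stmn1*, which destabilises microtubules, at 15.5, 27 and 17.7 FPKM in Fraction 7, against 407, 417 and 431 in LZ (log2 change -4.35 ± 0.15). The linker histone *H1fx* had 0.159, 0.676 and 0.073 FPKM in Fraction 7, against 27, 27.6 and 29.2 in LZ (log2 change -4.5 ± 0.14). *Hbb-bh1*, a gene of the globin family whose reads may be shared with other globins, had 0, 0.158 and 0.769 FPKM in Fraction 7, against 33.2, 25.6 and 37 in LZ. Among the most abundant genes, *Tmsb4x* did not pass (log2 change 0.01 ± 0.11, adjusted p = 0.941), nor did *Eef1a1* (log2 change -0.15 ± 0.08, adjusted p = 0.123), while *Actb* (log2 change -0.77 ± 0.11) and *Pfn1* (log2 change -1.13 ± 0.10), both of the actin skeleton, fell.

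The other memory gates of the study give the levels of these genes in cells of intermediate phenotype. Fraction 5 (pro-memory, 3 libraries) was CD38+, GL7-, Bcl6-YFPhi and Efnb1hi, and Fraction 6 (pre-memory, 2 libraries) CD38+, GL7-, Bcl6-YFPlo and Efnb1hi, so that the gates of Fraction 7 and Fraction 6 differed in Efnb1 alone. All 3 gates were set against the same LZ libraries, so these differences share them. For the 758 genes past 2-fold higher in Fraction 7, the median difference from LZ was 0.33 in Fraction 5, 0.88 in Fraction 6 and 1.48 in Fraction 7. For the 1212 genes past 2-fold lower it was -0.52, -1.04 and -1.42. These genes were picked by Fraction 7 against LZ, which fixes their direction there.

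The medians of the lists differed in how they ran across these gates. Germinal centre identity had a median difference from LZ of 0.08 in Fraction 5, -0.88 in Fraction 6 and -2.50 in Fraction 7, and mitosis -0.50, -2.22 and -2.98. Ribosome biogenesis was lowest in Fraction 5, at -0.92, then -0.66 in Fraction 6 and -0.70 in Fraction 7. The sterol list ran -0.46, -0.68 and -0.94, and the list of memory and resting genes 0.44, 1.20 and 1.85. Single genes followed the same variety. *Bach2* averaged 53.4 FPKM in Fraction 5 and 31.9 FPKM in Fraction 6, against 13.2, 12.9 and 9.05 FPKM in the Fraction 7 libraries. *Ccr6* already averaged 97.8 FPKM in Fraction 6, and *Gar1* stood at 15.1 FPKM in Fraction 5.

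**Figure D5:**
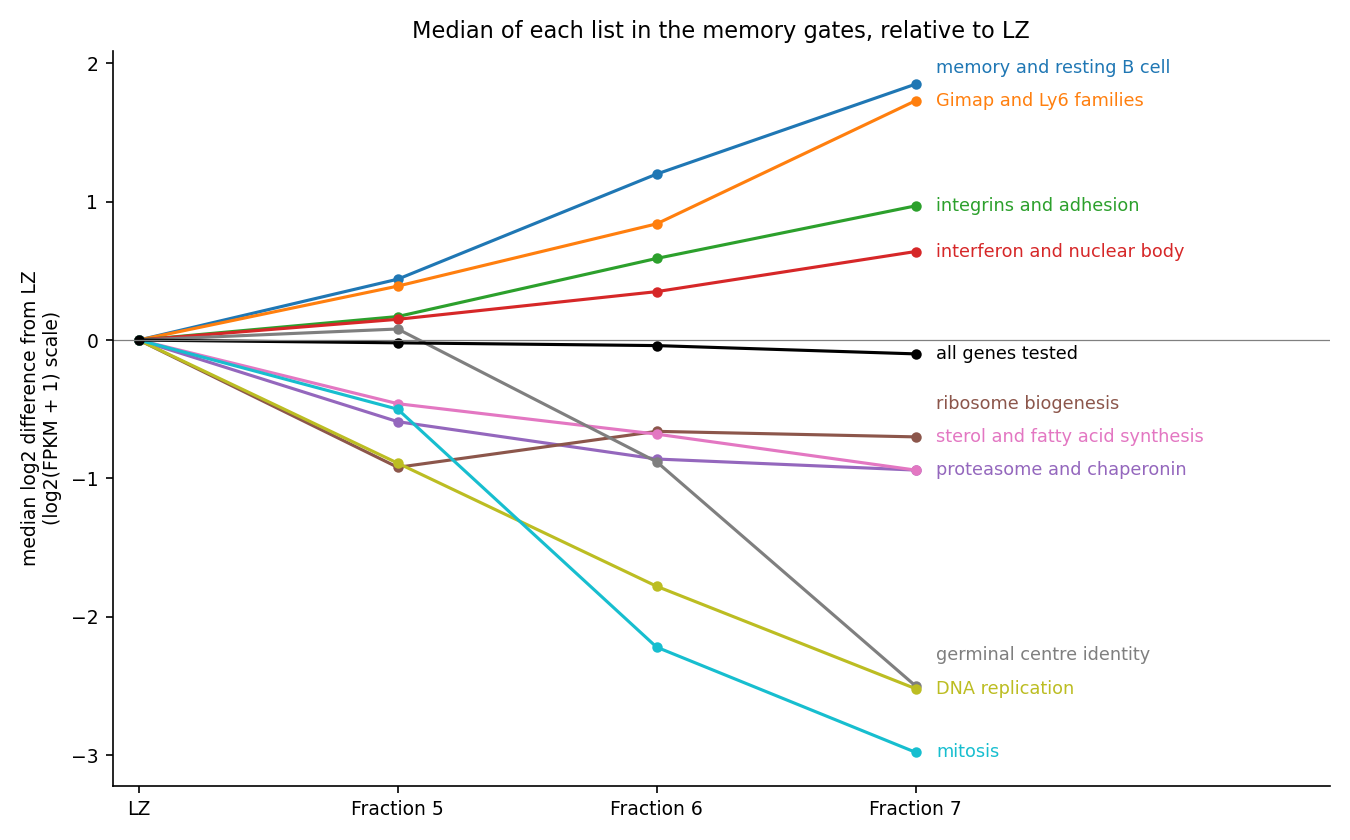
Median difference from LZ on the log2(FPKM + 1) scale for 10 gene lists and all genes tested (black), in LZ (0 by definition), Fraction 5, Fraction 6 and Fraction 7; each point is a median over the tested members. Germinal centre identity stays near 0 in Fraction 5 and falls to -2.50 in Fraction 7, ribosome biogenesis is lowest in Fraction 5, and memory genes climb at each step to 1.85.

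Tested directly in the same fit, Fraction 7 differed from Fraction 6 in 2393 genes (21.2% of those tested), 830 higher (7.37%) and 1563 lower (13.9%). Leaving out Fraction 6 library 1 gave 1561, leaving out its library 2 gave 1334, and Fraction 7 library 1 alone gave 1589. The same Fraction 7 libraries entered both comparisons. By list, 22 of 24 germinal centre identity genes, 38 of 54 mitosis genes and 30 of 50 replication genes were lower in Fraction 7 than in Fraction 6. In contrast, 3 of 36 sterol genes and 2 of 39 ribosome biogenesis genes were. The germinal centre list holds *Efnb1*, on which the gates of Fraction 7 and Fraction 6 were separated. Of the Gimap and Ly6 genes 13 of 15 were higher than in Fraction 6, and of the memory and resting genes 13 of 35 were higher and 8 lower. *Plac8* had 430.2, 329.6 and 428 FPKM in Fraction 7, against 13.6 and 45.3 FPKM in the 2 Fraction 6 libraries (Fraction 7 minus Fraction 6, log2 3.92 ± 0.43, adjusted p = 2.24e-05). *Bhlhe41* had a mean of 4.86 FPKM in Fraction 6 (log2 3.65 ± 0.29, adjusted p = 1.59e-06), and *Zbtb32* of 5.69 FPKM (log2 2.81 ± 0.28, adjusted p = 1.00e-05). By contrast *Idi1* averaged 7.76 FPKM there (log2 -0.16 ± 0.16, adjusted p = 0.539) and *Gar1* 17 FPKM (log2 -0.19 ± 0.08, adjusted p = 0.101), neither of which passed.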

How the data were processed

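Spleen B cells were sequenced from total RNA (TRIzol, NEBNext Ultra RNA kit, per the labels). The authors deposited FPKM per gene; TopHat2 2.0.8, Cufflinks 2.1.1 and mm9 are named in the submitters' processing notes. No counts were used, so depth is unknown and no counting interval is given. The kit marks no strand, so antisense overlaps are not separated. Of 23234 genes (1 unnamed row dropped), 11266 with 1 FPKM or more in 2 or more of the 16 libraries were tested with limma 3.58.1 in R 4.3.3, on log2(FPKM + 1) over 6 groups (10 residual degrees of freedom, trended variance, Benjamini-Hochberg threshold 0.05). An exact permutation test of 3 against 3 cannot go below 0.1, so none was run. In data simulated for this comparison the fit recovered 48 of 67 genes changed by a log2 of 0.5, 65 of 67 by 1 and 66 of 66 by 2. It called 7 unchanged genes in a fit of 11266 genes. The simulation drew independent normal noise with the spread of the fit itself and changed few genes, all well expressed. It checks that the code runs as intended and cannot give the rate of false calls in the real libraries, where 62.1% of genes were called.

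Members and lists were chosen with earlier results of these data known. Named genes were the 15 largest rises and falls, up to 6 list members by adjusted p with up to 3 of opposite direction, a fixed panel, genes on in one gate only, abundant genes and cell markers. Chosen after their values were seen were *Bax*, *Bcl2a1a*, *Bcl2a1b*, *Bcl2a1d*, *Bcl2l11*, *Bhlhe40*, *Birc5*, *Cbx5*, *Ccnd2*, *Cd40*, *Cdc25b*, *Cdkn2c*, *Cr2*, *Depdc5*, *Ebp*, *Ezh1*, *Gatsl2*, *Gatsl3*, *Gna13*, *Gnai2*, *Hmgcs1*, *Irf7*, *Isg15*, *Itgb1*, *Ly6a*, *Ly6k*, *Mcl1*, *Mtor*, *Ndufa6*, *Ndufa7*, *Pmaip1*, *Psmb10*, *Psmb8*, *Psmb9*, *Psme2*, *Rb1*, *Rbl2*, *Rgs1*, *Rgs10*, *Rgs14*, *Rgs18*, *Rgs19*, *Rps27*, *S1pr3*, *S1pr4*, *Scd1*, *Selplg*, *Sesn2*, *Sesn3*, *Ski*, *Stat2*, *Syk*, *Tle3*, *Top2a*, *Tsc1*, *Tsc2*, *Tyms*, *Unc93b1* and *Xbp1*. Lists were matched through older symbols (*Gcsam* as *Gcet2*, *Nuggc* as *Gm600*, *Jchain* as *Igj*). Alternatives were a pseudocount of 0.1, filters of 0 and 5 FPKM, other scalings, array weights, both gates alone, Fraction 3 (a Bcl6-YFPhi CD69lo subset of the light zone) as the comparison group, and leaving out each library. Promoters came from RefSeq (GRCm38.p6). *Ighg1* was not analysed here. The text leaves out a few genes selected by these rules. Tables and figures used Python 3.11.15, pandas 2.3.3, numpy 2.4.6 and matplotlib 3.10.9.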

Additional observations from a re-analysis of the deposited data

How the results depend on the processing

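The count of genes that differed between Fraction 7 and LZ stayed within 1.5 times its main value of 6997 under every alternative run, from 5556 (2350 higher, 3206 lower) with Fraction 7 library 1 alone to 7671 with no filter. Leaving out 1 library at a time gave 6489 to 6793 genes in all, 2420 to 2632 higher and 3922 to 4373 lower. The lists depended more on the scaling. Quantile normalization moved 20 of the 26 list medians by more than the replicate spread of their members. It also changed 11 of the 52 list counts by over 1.5 times. Median-ratio scaling moved 4 medians and 3 counts, and Fraction 3 in place of LZ moved 8 medians and 5 counts. Fraction 7 and LZ libraries with the same replicate number did not deviate together (correlations -0.051, 0.01 and -0.078 for numbers 1, 2 and 3). Those with unlike numbers ran from -0.068 to 0.124. No pairing was seen, but the check covers only these gates and cannot show whether libraries shared a sort. With a replicate block the fit called 7081 genes, 2749 higher and 4332 lower, and 2471 between Fraction 7 and Fraction 6. The comparison with Fraction 6 was less stable, at 2393 genes with all libraries and 1334 to 2491 with 1 library left out, and 1589 with Fraction 7 library 1 alone.

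Signs turned for few named genes, none of them with a change past 2-fold in the fit with all libraries except the short RNA *Mir678*. After quantile normalization the log2 change was 0.01 for *Sp110*, 0.22 for *Ptprc*, 0.06 for *Pax5*, 0.05 for *Irf8*, 0.23 for *2010001M09Rik*, 0.19 for *Fcer2a* and 0.0 for *Cd74*. With Fraction 3 in place of LZ it was 0.36 for *Myc* and 0.66 for *Fscn1*. With Fraction 7 library 1 alone it was -0.0 for *Mir678* and -1.36 for *Igj*. Of 267 genes that the naming rules select 245 were called, and 12 of those lost the call without at least 1 library. FPKM carry no depth, so low values cannot be given a limit of detection. The cause of these shifts was not tested.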

Other observations

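Further genes, chosen after their values were seen and outside the lists except *Nt5e* and *Lmnb1*, also separated the gates. Enzymes and receptors of extracellular purines were among them. *Entpd1* (CD39), which degrades ATP, had 8.87, 8 and 8.59 FPKM in Fraction 7, against 0.0175, 0.329 and 0.209 in LZ (log2 change 3.01 ± 0.13), and *Adora2a*, the adenosine receptor, had 17.4, 13.7 and 14.7 FPKM in Fraction 7, against 1.41, 2.01 and 1.31 in LZ (log2 change 2.66 ± 0.18). *Ada*, adenosine deaminase, fell to 4.17, 6.49 and 5.42 FPKM in Fraction 7, against 63.7, 67.1 and 64.7 in LZ (log2 change -3.4 ± 0.10). Together with *Nt5e* (log2 change -0.70 ± 0.10), which makes adenosine from AMP, 2 of these 4 were higher and 2 lower.

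The actin-binding proteins *Capg*, *Pdlim1* and *Cnn3* rose. *Capg* had 469.9, 392 and 414 FPKM in Fraction 7, against 34.7, 38.3 and 30.0 in LZ (log2 change 3.6 ± 0.12), *Pdlim1* changed by 3.76 ± 0.24 and *Cnn3* by 3.79 ± 0.25 on the log2 scale. Within the nuclear lamina, *Lmna* had 9.73, 2.88 and 7.91 FPKM in Fraction 7, against 0.212, 0.0947 and 0.0754 in LZ (log2 change 2.67 ± 0.29), while *Lmnb1* had 19.7, 24.4 and 18.3 FPKM in Fraction 7, against 145, 152 and 147 in LZ (log2 change -2.78 ± 0.13). The surrogate light chain gene *Vpreb3* had 25.1, 30.7 and 22.4 FPKM in Fraction 7, against 109, 153 and 151 in LZ (log2 change -2.35 ± 0.15), and no library of one gate overlapped the other for any gene named in these paragraphs.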
